A study of Mus musculus with 4 samples.

Results

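Lyz1 and Lyz2, the 2 lysozyme genes that lie side by side on mouse chromosome 10, were followed through 4 RNA-seq libraries of bone marrow-derived macrophages. They were taken by symbol, as 2 of 23284 gene rows in each library. They were chosen by their measured FPKM, their share of all FPKM and their ratios between libraries, so these values are given as a description, with no test. Each library was 1 culture condition: control (Spic+/+) and knockout (Spic-/-), each free of LPS or treated with it. All 4 had received hemin for 18 h, at 40 µM in the protocol text (the sample descriptions give 40 mM), and LPS was given at 100 ng/ml for 4 h. Control cells were exposed to hemin as well, and no library without hemin was analysed here. The sample titles call the knockout conditional, but the labels name neither the allele nor a Cre driver, and they do not say how many mice gave the marrow. With 1 library per group, no difference has a replicate check.

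Lysozyme is a small secreted enzyme that cuts the glycan strands of bacterial peptidoglycan. Mice carry a pair of genes for it: Lyz2 encodes the M form, the main lysozyme of macrophages and other myeloid cells, and Lyz1 encodes the P form, known best from Paneth cells of the small intestine. In phagocytes the enzyme acts in phagosomes and is also released, and the fragments it frees are ligands of cytosolic peptidoglycan sensors. Spi-C, the product of Spic, is induced by heme and belongs to the Ets family of transcription factors, and its relative PU.1 is a known activator of lysozyme genes. The Lyz2 locus is also where the Cre of the widely used LysM-Cre mouse is inserted.

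Values were FPKM, a level per exon length and library size computed by the authors. The spacing of low values put 1 FPKM at an estimated 15.6 fragments per kilobase in LPS-free control, 10.6 in LPS-treated control, 12.9 in LPS-free knockout and 8.07 in LPS-treated knockout. Ratios are log2 ratios of (FPKM + 1) between single libraries. Intervals are exact 95% (Clopper-Pearson) intervals of the FPKM ratio from estimated fragments; they cover counting error only and not variation between cultures. Spic itself stood at 53.1 FPKM in LPS-free control and 14.98 in LPS-free knockout, and at 406 and 80.8 with LPS. Spic transcript was thus still counted in both knockout libraries, and the LPS-treated knockout stood above the LPS-free control. The labels do not say which part of the gene is deleted, so the level over that part is unknown.

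The coding sequences are shown first because the 2 genes are so alike that short reads can fail to tell them apart. They were cut from the transcript sequences of GENCODE vM21 (GRCm38), and the first 240 bases are printed. Capitals mark the bases at which they differ.
Lyz2: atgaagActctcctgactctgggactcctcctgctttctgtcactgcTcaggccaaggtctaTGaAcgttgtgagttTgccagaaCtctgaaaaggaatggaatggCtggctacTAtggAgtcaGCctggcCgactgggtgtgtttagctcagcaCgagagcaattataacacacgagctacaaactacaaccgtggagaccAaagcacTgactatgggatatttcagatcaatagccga
Lyz1: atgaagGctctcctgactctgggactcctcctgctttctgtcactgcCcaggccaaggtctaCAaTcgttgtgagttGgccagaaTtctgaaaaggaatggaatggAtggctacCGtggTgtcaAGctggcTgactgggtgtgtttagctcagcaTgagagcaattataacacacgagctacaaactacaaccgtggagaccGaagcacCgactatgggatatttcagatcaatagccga

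Each coding sequence had 444 bases without the stop codon, and 22 of them differed, 17 of these in the stretch shown, which left 95.05% identical. The differences lay at all codon positions, 6 at the first, 6 at the second and 10 at the third, and the longest identical stretch was 118 bases. Over the whole transcripts (1316 bases for Lyz2 and 1263 for Lyz1), 15.4% of the 50-base windows of Lyz2 were also found in Lyz1, 5.96% of its 75-base windows and 1.97% of its 100-base windows. For Lyz1 the shares found in Lyz2 were 16.1%, 6.22% and 2.06%. The read length and the handling of reads that match both genes are not given in the sources used here, so the values of either gene are uncertain to that extent, and the sum of both is given as well.

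Lyz2 lies on chromosome 10 at 117277331 to 117282321 and Lyz1 at 117287797 to 117292868 (GRCm38), both on the minus strand, with 4 exons each and a gap of 5.48 kb between them. Short stretches of their promoters are shown because the pair had nearly the same profile over the libraries. They were read from RefSeq promoters of GRCm38.p6, minus strand, from base -130 to base -50 counted from the RefSeq start, at chr10:117282322-117282402 for Lyz2 and chr10:117292918-117292998 for Lyz1. Capitals mark a pair of facing AGGAA cores.
Lyz2: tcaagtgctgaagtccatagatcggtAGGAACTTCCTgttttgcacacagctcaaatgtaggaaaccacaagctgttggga
Lyz1: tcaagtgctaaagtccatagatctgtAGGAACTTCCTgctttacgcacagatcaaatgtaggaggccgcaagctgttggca

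In these 81 bases the genes differed at 10 positions (87.7% identical), and in the 49 bases between them and the RefSeq start at 0 positions. For Lyz2 the GENCODE and RefSeq starts differ: those 49 bases lie within the first exon of the GENCODE model, so the stretch printed for Lyz2 ends directly before the GENCODE start. For Lyz1 both starts are the same base. Farther up, the first 120 of the 250 bases were 26.7% identical when laid side by side without gaps. Motifs were searched on both strands in the 250 bases before the start. GAGGAA, a purine-rich core of the kind PU.1 and Spi-C bind, was found in neither promoter, against 23.3% of 32851 RefSeq promoters of the same length. TTNNGNAA, a C/EBP form, was found once in each, at -55 in Lyz2 and at -209 in Lyz1, and in 36.8% of all promoters. TATAAA (12.4% of all promoters), TGANTCA for AP-1 (6.75%), an NF-kB form (GGG, any pair of bases, TTTCC; 1.41%) and an interferon response form (GAAA, any pair of bases, GAAA; 2.98%) were found in neither. The capitals mark a pair of AGGAA cores facing each other at -104 in both genes, searched after the sequences had been seen. This exact string was held by 16 of all promoters (0.0487%), and Lyz1 and Lyz2 are among them. Nothing is read from this share, since the string was taken from these promoters and a string of its length is rare. The shorter AGGAA, which overlaps it, was found at 4 places in each promoter and in 60.3% of all promoters.

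Lyz2 was among the most abundant transcripts of every library, with 6340.4 FPKM in LPS-free control, 5620.4 in LPS-treated control, 4014 in LPS-free knockout and 3419 in LPS-treated knockout. Its values rested on an estimated 109628, 65914, 57460 and 30507 fragments. Both control libraries stood above both knockout libraries, and within each genotype the library with LPS was the lower.

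Lyz1, the P-lysozyme gene, kept the same order at a lower level: 716 FPKM in LPS-free control, 661 in LPS-treated control, 459 in LPS-free knockout and 389.9 in LPS-treated knockout. These came from an estimated 11787, 7382, 6259 and 3312 fragments. Both knockout libraries were below both control libraries for each gene, as for 3.95% of the 8272 genes that reached 5 FPKM in any library; nothing is read from this, since these values chose the pair. Each genotype had 1 library per LPS state, so the spread between cultures is unknown.

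**Figure D1:**
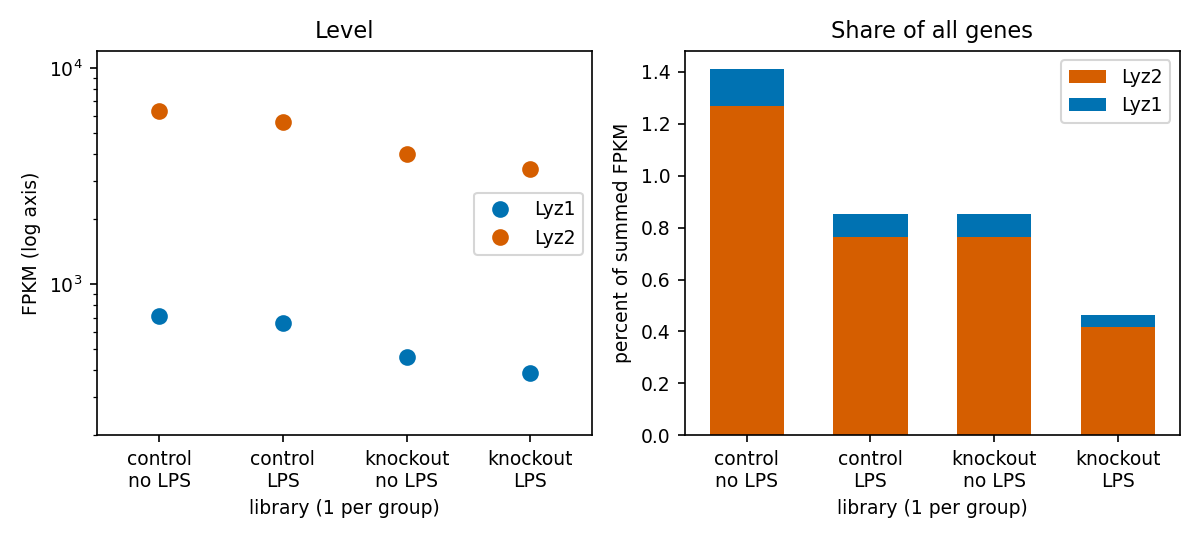
Left, FPKM of Lyz1 and Lyz2 on a log axis in the 4 libraries, 1 point per library; right, their stacked share of the summed FPKM of all genes, in percent. Lyz2 runs from 6340.4 FPKM in LPS-free control to 3419 in LPS-treated knockout, and the joint share from 1.41% to 0.465%.

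The ratio of the paralogs stayed between 8.50 and 8.86 in the 4 libraries. Lyz2 was 8.86-fold Lyz1 in LPS-free control (interval 8.69 to 9.03), 8.50-fold in LPS-treated control (8.30 to 8.71), 8.74-fold in LPS-free knockout (8.52 to 8.97) and 8.77-fold in LPS-treated knockout (8.46 to 9.09). Lyz1 thus made up 10.1%, 10.5%, 10.3% and 10.2% of the sum of both. The intervals of the 2 control libraries touch only between 8.69 and 8.71, and those of the knockout libraries overlap each other. The part that reads matching both genes have in this near-constant ratio was not tested.

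In the order of all genes by FPKM, with small RNA genes left out, Lyz2 ranked 3 in LPS-free control, below the ferritin heavy chain gene Fth1 (19563 FPKM) and above B2m (5361 FPKM), the light chain of MHC class I. In LPS-treated control it ranked 12, between Il1b (5779 FPKM), which encodes interleukin 1 beta, and the heme oxygenase gene Hmox1 (5423 FPKM). In LPS-free knockout it ranked 6, between the peroxiredoxin gene Prdx1 (4248 FPKM) and the cathepsin D gene Ctsd (3969 FPKM). In LPS-treated knockout it ranked 22, between Irg1 (3458 FPKM), the gene of the itaconate-producing enzyme, and the apolipoprotein gene Apoe (3031 FPKM).

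Lyz1 ranked 99, 167, 170 and 320 in the same libraries. Its nearest neighbours in level were the ribosomal protein genes Rplp0 (728 FPKM) and Rpl4 (715 FPKM) in LPS-free control, and Dusp1 (663 FPKM), a phosphatase gene of MAP kinases, and the cell cycle inhibitor gene Cdkn1a (658 FPKM) in LPS-treated control. In LPS-free knockout they were Rpl14 (460.1 FPKM), another ribosomal protein gene, and the translation factor gene Eif5a (459 FPKM). In LPS-treated knockout they were the histone gene H3f3a (390.2 FPKM) and Tnip1 (389.4 FPKM), whose product binds A20.

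As a share of the summed FPKM, Lyz2 took 1.27% in LPS-free control, 0.763% in LPS-treated control, 0.764% in LPS-free knockout and 0.417% in LPS-treated knockout. For Lyz1 the shares were 0.143%, 0.0897%, 0.0874% and 0.0476%. Together they took 1.41%, 0.853%, 0.851% and 0.465%. The joint share of control cells with LPS was thus close to that of knockout cells without LPS, although the summed FPKM of the 2 libraries differed, at 736818 and 525348.

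The comparison of genotypes sets 1 knockout library beside 1 control library of hemin-loaded macrophages in each LPS state, and cannot show dependence on Spi-C. Both lysozyme genes were lower in knockout in each LPS state. Without LPS, Lyz2 stood at 63.3% of control (interval of the ratio 0.627 to 0.640, log2 ratio -0.66) and Lyz1 at 64.1% (0.622 to 0.661, log2 ratio -0.64). With LPS, Lyz2 stood at 60.8% (0.6001 to 0.617, log2 ratio -0.72) and Lyz1 at 58.97% (0.566 to 0.614, log2 ratio -0.76). The sum of both was at 63.4% without LPS and 60.6% with LPS. In bulk RNA, fewer cells of a type and less RNA per cell cannot be told apart.

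All 4 of these ratios were past 1.5-fold and none reached 2-fold, as 0.412% of genes did downward without LPS and 0.4% with LPS. Of the genes with at least 5 FPKM in 1 library of the pair, 106 of 7762 (1.37%) were at least 1.5-fold lower in LPS-free knockout and 127 of 7509 (1.69%) with LPS, and 1.75% and 2.86% were higher by as much. Nothing further is read from this, since the genes were chosen with these ratios known. Without LPS, 88 of the 7762 genes had a ratio below that of Lyz2 and 93 below that of Lyz1, and with LPS 78 and 66 of the 7509. The central 95% of genes lay between -0.37 and 0.49 without LPS and between -0.49 and 0.60 with LPS.

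**Figure D2:**
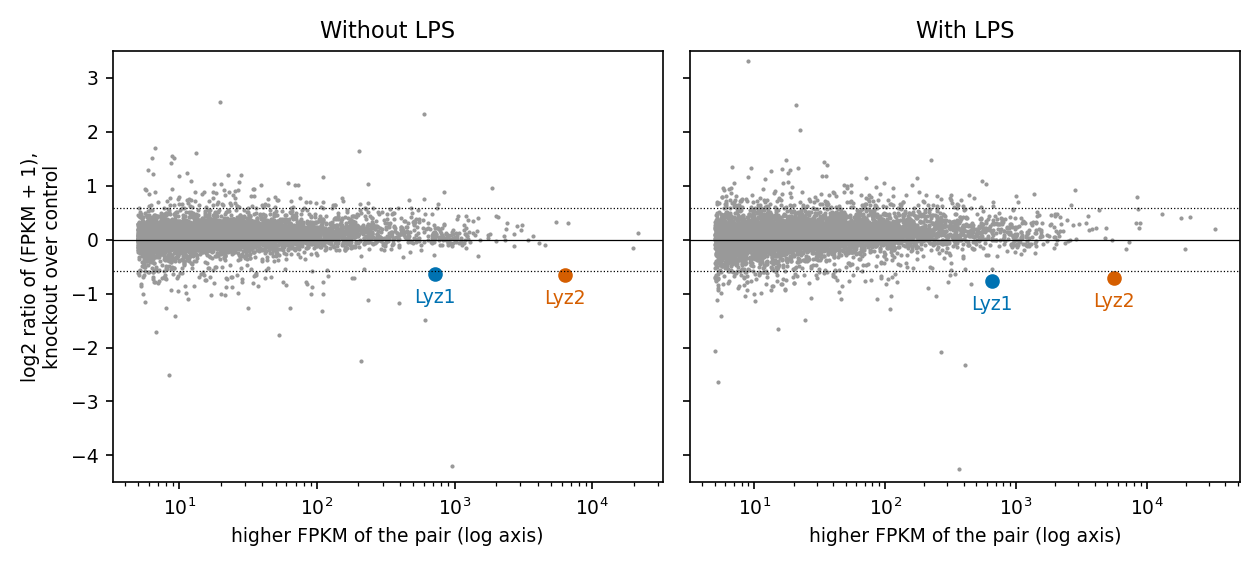
Log2 ratio of (FPKM + 1), knockout over control, against the higher FPKM of the pair on a log axis, without LPS (left) and with LPS (right); each grey point is a gene with at least 5 FPKM, small RNA genes left out, and dotted lines mark 1.5-fold. Lyz1 and Lyz2 lie below the lower dotted line in both plots, at -0.64 and -0.66 without LPS and -0.76 and -0.72 with LPS.

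The LPS comparison asks how the genes respond to Toll-like receptor 4 signalling. Both lysozyme genes were slightly lower with LPS in each genotype, and none of these ratios was past 1.5-fold as deposited, or past 2-fold (at least 2-fold lower were 6.5% of genes in control and 7.74% in knockout). In control cells, Lyz2 with LPS was at 88.6% of its level without (interval 0.878 to 0.895, log2 ratio -0.17) and Lyz1 at 92.3% (0.897 to 0.951, log2 ratio -0.11). In knockout cells, Lyz2 was at 85.2% (0.840 to 0.864, log2 ratio -0.23) and Lyz1 at 84.9% (0.814 to 0.886, log2 ratio -0.24). At least 1.5-fold lower with LPS were 15.1% of 8050 genes in control and 17% of 8098 in knockout, and 23.1% and 25.4% were higher by as much. Below the ratio of Lyz2 stood 2635 of these genes (32.7%) in control and 2540 (31.4%) in knockout.

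The size of the LPS difference depended on how libraries were scaled. When each library was brought to the same summed FPKM, which is the TPM scale, Lyz2 was at -0.73 in control and -0.87 in knockout and Lyz1 at -0.67 and -0.88, all past 1.5-fold. With that step the median over all genes went from 0.11 to -0.42 in control and from 0.12 to -0.48 in knockout. The balance of all genes turned as well. In control cells, LPS went with 1860 genes higher by 1.5-fold or more and 1219 lower as deposited, and with 874 and 3150 on the TPM scale. In knockout the counts were 2054 and 1375 as deposited and 889 and 3551 on the TPM scale. For knockout over control they went from 136 higher and 106 lower to 104 and 137 without LPS, and from 215 and 127 to 97 and 214 with LPS. Scaling to the upper quartile gave 1422 higher and 1656 lower for LPS in control, 1549 and 1847 for LPS in knockout, 98 and 137 for genotype without LPS and 134 and 178 with LPS. Relative to the median of all genes, Lyz2 stood at -0.29 in control and -0.36 in knockout as deposited, and at -0.31 and -0.40 on the TPM scale. The genotype ratios of Lyz2 relative to the median were -0.73 without LPS and -0.81 with LPS, both as deposited and on the TPM scale, where the median over all genes went from 0.07 to 0.00 without LPS and from 0.09 to -0.06 with LPS.

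The LPS ratio of the knockout minus that of control was -0.06 for Lyz2 and -0.12 for Lyz1, with a counting error (95%) of ± 0.0245 and ± 0.0743. On the TPM scale it was -0.14 for Lyz2 and -0.20 for Lyz1, outside these errors. This difference was not tested, since 4 libraries leave no replicate to test it with.

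The other lysozyme family genes were all under 1 FPKM. Of the 10 family members searched (c-type and g-type), Lyzl1, Lyzl6, Spaca3, Spaca5, the alpha-lactalbumin gene Lalba, and the g-type genes Lyg1 and Lyg2 were listed at 0 in all 4 libraries. Lyzl4 was at 0.568 FPKM in LPS-free control, 0.239 in LPS-treated control, 0.980 in LPS-free knockout and 0.315 in LPS-treated knockout.

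The genes around the pair on chromosome 10 were looked at next. Of 17 genes of the files that lie within 500 kb, 9 besides Lyz1 and Lyz2 reached 1 FPKM. Their knockout to control ratios ran from -0.18 (Frs2, an adaptor gene of growth factor receptors) to 0.33 (Mdm2, the p53 ubiquitin ligase gene) without LPS. With LPS they ran from -0.03 (Slc35e3) to 0.28 (Yeats4, a chromatin reader gene). None of the 9 was thus 1.5-fold apart. Of the 10935 genes at 1 FPKM in at least 1 library, 1.67% were higher and 1.87% lower by as much without LPS. With LPS these shares were 2.62% and 2.51%, so a count of 0 among 9 genes is no result. The closest of the 9 on each side were Yeats4, with its start 57.8 kb from that of Lyz2 (22.7 FPKM in LPS-free control and 23.95 in LPS-free knockout), and Cpsf6, a polyadenylation factor gene, at 97.7 kb (7.05 and 8.23 FPKM). The protein-coding gene 9530003J23Rik, 43.6 kb from Lyz2, was listed at 0 in every library.

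**Figure D3:**
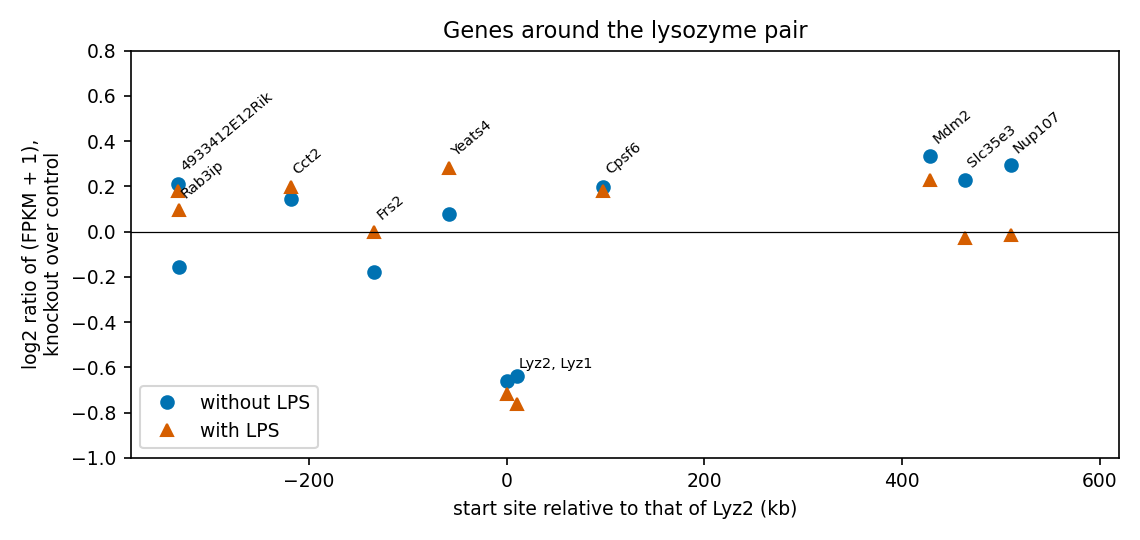
Log2 ratio of (FPKM + 1), knockout over control, of the genes around the lysozyme pair that reach 1 FPKM, against the distance of their start from that of Lyz2 in kb; circles are without LPS and triangles with LPS. The 9 other genes lie between -0.18 and 0.33, and Lyz1 and Lyz2 between -0.76 and -0.64.

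The next lists, like the members, were drawn up with earlier results of these data known. They hold the genes around lysozyme in its pathway and setting, and members are counted from 1 FPKM in at least 1 library. Of the 10935 genes that passed the same filter, 1.67% were at least 1.5-fold higher and 1.87% lower in knockout without LPS, and 2.62% and 2.51% with LPS. With these shares a count of 0 in a short list is no result. For LPS the shares were 19.4% higher and 17.5% lower in control, and 21.1% and 19.8% in knockout. Of 9 genes for sensors and carriers of peptidoglycan fragments (of 15 listed), 0 were 1.5-fold apart between the genotypes in either LPS state, and their median ratio was 0.24 without LPS and 0.34 with LPS. The median over all genes with at least 5 FPKM in 1 library of the pair, a stricter filter, was 0.07 and 0.09. With LPS, 7 of the same 9 genes were higher by 1.5-fold or more in each genotype and 1 lower. Nod2, the muramyl dipeptide sensor gene, was at 2.28 FPKM in LPS-free control and 27.5 with LPS, and at 1.98 and 38.6 in knockout. Nlrp3, an inflammasome sensor gene, was at 21.9 and 274 FPKM in control cells and at 24.8 and 409 in knockout cells, and with LPS its genotype ratio of 0.57 was the highest of the list. Slc15a3, a lysosomal peptide transporter gene, was at 103 FPKM without and 504 with LPS in control cells, and at 135 and 687 in knockout cells. Slc46a3, a carrier gene of the same setting, was the lower one, at 8.76 FPKM without and 1.07 with LPS in control cells, and at 7.72 and 0.616 in knockout cells.

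Lysosomal enzymes and secreted lysosomal proteins, share the compartment of lysozyme. Of 23 such genes, 0 were 1.5-fold apart between genotypes in either LPS state. Their median was 0.17 without LPS and 0.15 with LPS, and 20 and 19 of the genes were above 0. On the TPM scale the medians were 0.10 and 0.01, with 17 and 12 genes above 0 and again 0 past 1.5-fold. Without LPS, Ctsd was at 4129 FPKM in control cells and 3969 in knockout cells, the cathepsin S gene Ctss at 2398 and 2844, and the saposin precursor gene Psap at 2700 and 2484. With LPS, Ctsd was at 2606 and 2597 FPKM, Ctss at 2274 and 2733, and Psap at 2039 and 1925. The highest ratios of this list without LPS were those of the cathepsin L gene Ctsl and the cystatin C gene Cst3, both at 0.44, and the lowest was that of Gaa, the acid glucosidase gene, at -0.28 without LPS and -0.22 with LPS. For LPS, the medians of the list were -0.22 in control and -0.17 in knockout, next to -0.17 and -0.23 for Lyz2, and on the TPM scale -0.78 and -0.79, next to -0.73 and -0.87.

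Other antimicrobial proteins of phagocytes lay on both sides. Of 13 genes at 1 FPKM (of 19 listed), 4 were at least 1.5-fold higher in LPS-free knockout and 1 lower, with a median of 0.19. The 4 were Irg1 (1.02), the siderophore-binding lipocalin gene Lcn2 (0.93), the complement gene C3 (0.72) and the acute-phase gene Saa3 (0.66), and the lower one was the calprotectin subunit gene S100a9 (-0.69). With LPS, 2 were higher, Slpi (0.67), a protease inhibitor gene, and C3 (0.63), but on the TPM scale 0 were. In that state 3 were lower, the cathelicidin gene Camp (-1.01), S100a8 (-0.90) and S100a9 (-0.69), and the median was 0.18. Camp was at 4.82 FPKM in control cells and 1.90 in knockout cells. S100a9 was the one gene of this list that was at least 1.5-fold lower in both LPS states, as Lyz1 and Lyz2 were, at 16.7 FPKM in control cells and 9.94 in knockout cells without LPS, and 19.9 and 12.0 with LPS. Mpeg1, the perforin-2 gene of macrophages, was at 615 (control) and 718 FPKM (knockout) without LPS and 619 and 784 with LPS.

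A list of 11 transcription factor genes held Spic and factors reported at lysozyme regulatory elements, and 9 of them reached 1 FPKM. Spic, the knocked-out gene, was past 1.5-fold between the genotypes by design. None of the others was, in either LPS state. Sfpi1, the older symbol of the PU.1 gene Spi1, was at 259 FPKM in control cells and 322 in knockout cells without LPS and at 606 and 661 with LPS. Cebpa, which encodes the myeloid factor C/EBP alpha, was at 50.7 and 41.7 FPKM without LPS and 18.1 and 15.4 with LPS. Cebpb was at 69.98 and 67.4 FPKM without LPS and 322 and 239 with LPS, and Cebpd at 7.11 and 6.40 and at 93.2 and 68.9. The median over the 9 was -0.05 without LPS and -0.16 with LPS. In the LPS comparison Cebpd had a ratio of 3.54 in control and 3.24 in knockout, and Cebpa -1.44 and -1.38, against -0.17 and -0.23 for Lyz2.

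The labels call the knockout conditional, and Lyz2 hosts the LysM-Cre insertion. Genes whose promoter or locus drives Cre in other lines were therefore set beside Lyz2. A Cre line named for a gene need not have Cre inserted in it, so their levels are no comparison for an insertion. Of 10 at 1 FPKM (of 11 listed), Lyz2 was the one that was at least 1.5-fold lower in LPS-free knockout, and 8 were above 0, with a median of 0.37. The fractalkine receptor gene Cx3cr1, at 2.60 FPKM in control cells and 5.77 in knockout cells, was the one that was higher by as much. With LPS, Lyz2 and S100a8 (-0.90) were lower by as much. The colony-stimulating factor receptor gene Csf1r was at 319 FPKM in control cells and 371 in knockout cells without LPS, Emr1, the F4/80 gene, at 439 and 549, and the integrin gene Itgam at 144 and 193. With LPS they stood at 265 and 311, 644 and 790.3, and 146 and 199 FPKM. Lyz1 was at -0.64 without LPS and -0.76 with LPS, next to -0.66 and -0.72 for Lyz2, and some reads may match both genes. The labels do not say which Cre, if any, the knockout cells carried, and its part in the lysozyme values was not tested.

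Macrophage markers were present in all libraries. Of 9 markers, 8 had a knockout to control ratio above 0 in each LPS state, with medians of 0.31 and 0.23 (0.24 and 0.08 on the TPM scale, with 8 and 7 above 0), and 0 were 1.5-fold lower. Cd14, the LPS co-receptor gene, was over 1.5-fold higher without LPS, at 114 FPKM in control cells and 234 in knockout cells. The summed level of the list was 2162 FPKM in control cells and 2682 in knockout cells without LPS, and 5814 and 6775 with LPS. Cd68, a lysosomal membrane glycoprotein gene, was at 706 FPKM in control cells and 789 in knockout cells without LPS and at 565 and 636 with LPS.

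Most of the stromal markers counted were lower in knockout, as the lysozyme genes were. Of 8 at 1 FPKM (of 9 listed), 7 were at least 1.5-fold lower in knockout in each LPS state, and their medians were -0.80 without LPS and -0.69 with LPS. Of the 10935 genes at 1 FPKM, 1.87% were lower by as much without LPS and 2.51% with LPS. The stromal count was 7 under each scaling tried. These scalings lowered the genotype ratios or hardly moved them, so the count could not fall, and nothing is read from it. The summed level of the list was 648 FPKM in control cells and 332 in knockout cells without LPS, and 667 and 379 with LPS. None of the stromal markers was at 0 in all libraries. The 1 counted marker that was not lower was the decorin gene Dcn. It was at 2.71 FPKM in control cells and 2.82 in knockout cells without LPS, and at 7.70 and 8.28 with LPS. The collagen gene Col3a1 was at 35.9 FPKM in both control libraries and at 22.99 and 23.2 in knockout, and the smooth muscle actin gene Acta2 at 237 and 243 in control and 109 and 118 in knockout. The lowest ratios without LPS were those of the myosin light chain gene Myl9 (-1.27) and Ogn, the osteoglycin gene (-1.26), which stood at -0.86 and -1.09 with LPS. The part of stromal cells in the lysozyme values was not tested.

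Neutrophils also make Lyz2. Of 14 markers in the files, 6 reached 1 FPKM, the myeloperoxidase gene Mpo and the cathepsin G gene Ctsg were listed at 0 in every library, and the elastase gene Elane was at most 0.109 FPKM. The summed level of the list was 80.5 FPKM in control cells and 80.2 in knockout cells without LPS, and 296 and 188 with LPS. Of the 6, 2 were at least 1.5-fold lower in LPS-free knockout and 3 with LPS, as were 1.87% and 2.51% of the 10935 genes at 1 FPKM. Of the 6, 4 reached 5 FPKM in each genotype comparison. Below that level, Ngp was among the lower genes without LPS, at 2.62 FPKM in control cells and 0.892 in knockout cells. Camp was among those with LPS, at 4.82 and 1.90 FPKM. S100a8, at 214 FPKM in LPS-treated control and 114 in LPS-treated knockout, had the highest level of the list in that state. As deposited, 3 of the 6 genotype ratios lay above 0 and 3 below 0 in each LPS state. On the TPM scale these counts stayed at 3 and 3 without LPS and turned to 0 and 6 with LPS. Mmp8, the most abundant of the list without LPS, had a genotype ratio of 0.35 without LPS and 0.05 with LPS. For Csf3r the ratios were 0.21 and 0.06. The part of neutrophils in the lysozyme values was not tested. Monocyte markers summed to between 10.8 and 13.5 FPKM over the 4 libraries. Dendritic cell markers and B and T cell markers were all under 1 FPKM.

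**Figure D4:**
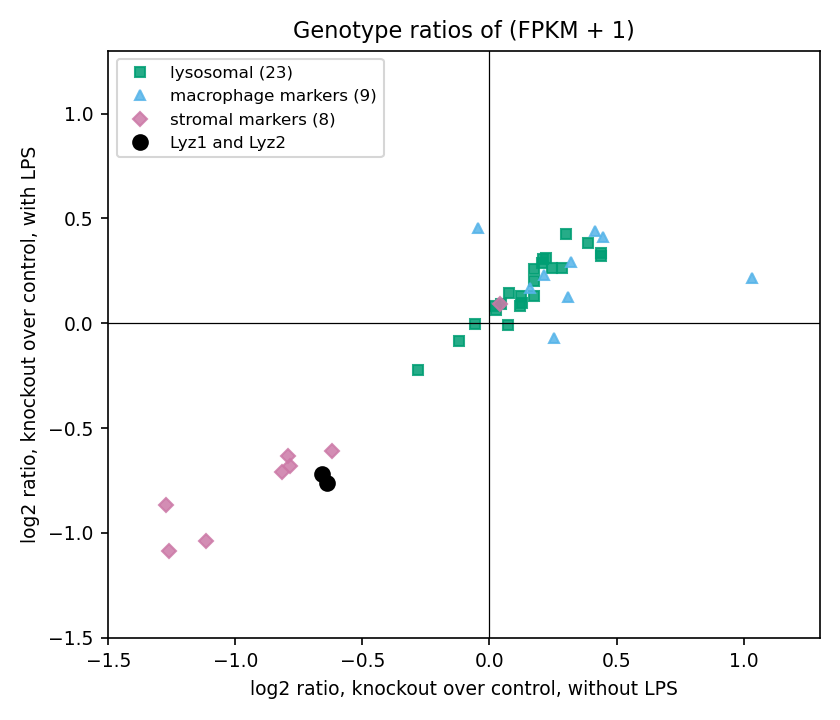
Log2 ratio of (FPKM + 1), knockout over control, with LPS against without LPS, for the lysosomal genes (squares), macrophage markers (triangles), stromal markers (diamonds) and the lysozyme pair (black circles); each point is a gene. Lyz1 and Lyz2 and 7 of the 8 stromal markers are at least 1.5-fold lower in both LPS states, and the lowest of the 23 lysosomal genes is at -0.28 without LPS and -0.22 with LPS.

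The genes whose profile over the 4 libraries was nearest to that of the pair were sought among 4343 genes at 20 FPKM or more in at least 1 library, by the Euclidean distance of log2(FPKM + 1) values centred on each gene's mean. Over 4 libraries this is a description. For each lysozyme gene the nearest was the other, at a distance of 0.0434. Next was Cnn2, which encodes the actin-binding protein calponin 2, at 0.0978 from Lyz2 and 0.117 from Lyz1. Cnn2 stood at 35.6, 31.3, 22.1 and 20.3 FPKM in LPS-free control, LPS-treated control, LPS-free knockout and LPS-treated knockout. Dkk3, a secreted Dickkopf family gene, followed at 0.181 from Lyz2 and 0.166 from Lyz1, at 21.8, 21.1, 12.9 and 12.8 FPKM in the same order, so that it passed the filter through the control libraries alone. The remaining genes of the 5 nearest were the tubulin gene Tuba1a for both, the G protein subunit gene Gng10 for Lyz2 and Col3a1 for Lyz1. At 20 to 36 FPKM in LPS-free control, these genes were far below Lyz1 and Lyz2 in level.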

How the data were processed

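FPKM values of 23284 genes in each of 4 libraries, 1 per combination of genotype and LPS, were deposited by the authors. Libraries came from a stranded mRNA kit, per the labels' protocols. The submitters' processing notes name Cuffnorm 2.2.1, SAMtools 0.1.19, TopHat2 2.0.13, Bowtie2 2.2.3 and the build mm10, with no role or setting. The annotation and the treatment of reads that match several genes are not given in the sources used here. Members, gene lists and rules were chosen with earlier results of these data known.

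Single libraries were compared by log2 ratios of (FPKM + 1) (Python 3.11.15, scipy 1.17.1). Genes with at least 5 FPKM in 1 library of a pair formed the background. No test was run. Depth was taken from the spacing of low values: of 2419 genes above 0 in at least 3 libraries and under 0.6 FPKM after division by the library's relative step, 1916 (79.2%) were whole multiples to within 0.02, trying divisors up to 6. The scale in fragments came from 305 single-transcript genes of GENCODE vM21, with 210 bases taken off the exonic length. Counting and depth steps were tested on simulated data. The 778 small RNA rows were left out of ranks and nearest profiles. Genes named were the pair, Spic, their neighbours in level and on the chromosome, the 5 nearest profiles, and from each list up to 4 of the most abundant members and up to 2 with the largest genotype ratios. Slc46a3, Gaa, and Lcn2, C3, S100a8, S100a9 and Slpi in the antimicrobial list were named after their values were seen. Cebpa, Dcn, Mpo, Ctsg, Elane and 9530003J23Rik were also named outside this rule. Lists were counted at 1.5-fold. Alternatives changed the pseudocount, the scaling, the minimum and the rows summed; list counts under other scalings were added after seeing the data.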

Additional observations from a re-analysis of the deposited data

How the results depend on the processing

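No log2 ratio of Lyz1, Lyz2 or their sum changed sign under any alternative run. With a pseudocount of 0.1 or 5 or median-ratio scaling each stayed within its counting interval. Those settings could move the ratios only slightly. The pseudocounts are small beside these levels, and median-ratio scaling took the median of all genes from 0.113 to 0.118 for LPS in control. The upper-quartile and equal-sum scalings lowered the ratios in every comparison. Ratios that were already negative could not change sign under them, so the unchanged sign is no sign of stability. In the order LPS in control, LPS in knockout, genotype without LPS and genotype with LPS, upper-quartile scaling gave -0.29, -0.42, -0.72 and -0.85 for Lyz1, -0.35, -0.42, -0.74 and -0.81 for Lyz2 and -0.34, -0.42, -0.74 and -0.81 for the sum. Equal sums of FPKM gave -0.67, -0.88, -0.71 and -0.91 for Lyz1, -0.73, -0.87, -0.73 and -0.87 for Lyz2 and -0.73, -0.87, -0.73 and -0.87 for the sum, and differences of the LPS ratios of -0.20, -0.14 and -0.15. Equal sums without small RNA genes gave -0.69, -0.88, -0.72 and -0.91 for Lyz1, -0.75, -0.88, -0.74 and -0.87 for Lyz2 and -0.74, -0.88, -0.74 and -0.88 for the sum, and differences of -0.19 for Lyz1, -0.13 for Lyz2 and -0.13 for the sum. Without small RNA genes in the total, the shares in control without LPS, control with LPS, knockout without LPS and knockout with LPS were 0.151%, 0.0933%, 0.0911% and 0.0494% for Lyz1, 1.33%, 0.793%, 0.796% and 0.434% for Lyz2 and 1.48%, 0.886%, 0.887% and 0.483% for both. Without small RNA and ferritin genes in the total, the shares in control without LPS, control with LPS, knockout without LPS and knockout with LPS were 0.164%, 0.1002%, 0.0988% and 0.0528% for Lyz1, 1.45%, 0.852%, 0.863% and 0.463% for Lyz2 and 1.62%, 0.952%, 0.962% and 0.516% for both. Counts of genes at least 1.5-fold apart depended on the scaling, as given above with the LPS ratios, and on the minimum and pseudocount. For LPS in control, LPS in knockout, genotype without LPS and genotype with LPS, the lower genes numbered 1902, 2147, 197 and 268 with a minimum of 1 FPKM, 1964, 2236, 219 and 300 with no minimum, 395, 495, 55 and 57 with a minimum of 20 FPKM, and 763, 906, 61 and 67 with a pseudocount of 5. The higher genes of the genotype comparisons numbered 85 and 131 with a minimum of 20 FPKM and 81 and 125 with a pseudocount of 5. Under equal sums the counts were 874 higher and 3150 lower for LPS in control, 889 and 3551 for LPS in knockout, and 97 and 214 for genotype with LPS, for which upper-quartile scaling gave 134 higher. Those of the scalings follow from the shift of all genes by 1 factor. A lower minimum can only add genes to the count, and a higher one can only remove them. A larger pseudocount shrinks the ratios, most of all those of genes at low levels. Counts at 2-fold were not run under the alternatives. No paired analysis was possible because each group is 1 library, so the groups share fewer than 2 replicate numbers, and for the same reason no replicate could be left out.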
